A study of Mus musculus with 12 samples.

Results

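Of the 12 RNA-seq libraries of the series, 4 were compared here: the 2 libraries labelled *Rack7*-cKO from astrocyte cultures begun at postnatal day 8 (P8) and the 2 from cultures begun at P6, chosen by those labels alone. The 12 libraries form 6 groups of 2, WT and *Rack7*-cKO at P1, P6 and P8. All of them are primary astrocyte cultures from mouse brain, and the day is that of dissection, so every culture then spent further days in vitro. WT stands for hGFAP-cre::*Rack7* +/+ and *Rack7*-cKO for hGFAP-cre::*Rack7* fl/fl, so both genotypes carry Cre. Cre is driven by the human *GFAP* promoter, which is active in neural stem cells and therefore reaches the neurons and glia that arise from them, whereas microglia, fibroblasts and vessel cells have another origin. According to the methods, meninges were stripped off, microglia and oligodendrocytes were shaken off, and mice of both sexes were used. The labels call the repeats biological without saying whether they were separate animals or pools, and p-values measure only the spread between such libraries.

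RACK7 is a chromatin reader encoded by *Zmynd8* that binds modified histones and recruits repressor complexes. Astrocytes descend from radial glia, which carry *Nes*, *Vim* and *Fabp7*, and in their first postnatal weeks they take on glutamate and potassium transport, water channels and the filament protein GFAP. In culture they can also take on reactive states, in which complement, cytokine and antigen presentation genes rise, and they grow beside whatever microglia, fibroblasts and vascular cells survive the purification.

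Levels are given as CPM, counts per 1000000 counts of the normalised library. Library totals, the depth of each library, lay between 66313766 and 89183250 counts in the 4 libraries and between 54413504 and 89183250 in all 12. A gene was called up- or down-regulated where edgeR gave an adjusted p under 0.05 and the fold change reached 1.5, and the counts cover autosomal genes alone. An exact permutation test of 2 libraries against 2 cannot go below 0.333, so single genes were tested only in the fit over all of them. *Xist*, the RNA of the inactive X chromosome, was at 824.8 to 1436 CPM in the P6 libraries of both genotypes and at no more than 0.9154 CPM in those of P1 and P8. The sum of 4 Y-linked genes was at most 0.06223 CPM in the P6 libraries and 259 to 344 CPM at P1 and P8. The P6 libraries thus carry a female pattern and the P8 libraries a male one, in WT as in *Rack7*-cKO, and day and sex cannot be told apart in any value below. The same switch stands in the WT step, the difference between P8 and P6 in WT, which was set against the *Rack7*-cKO step in a test of the difference between them.

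*Zmynd8* (ENSMUSG00000039671, chr2:165784152-165899016 of GRCm38, minus strand), the targeted gene, was at 241.5 and 230.5 CPM in the P6 *Rack7*-cKO libraries and at 160.4 and 171.3 CPM in those of P8. Its log2 difference of -0.51 (standard error 0.05) had an adjusted p of 2.22e-05 in edgeR but stayed under 1.5-fold, at 1.42-fold. In WT it was at 113.8 and 116 CPM at P6 and at 99.98 and 104.2 CPM at P8. The whole-gene count was therefore higher in the libraries labelled *Rack7*-cKO than in WT on both days, against the direction of the label, and it does not test the floxed exons. Libraries are named by their labels throughout.

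Markers of the labelled cell type were present, with *Gfap*, *Aqp4* and *Aldh1l1* above 70 CPM in each of the 4 libraries. The list of astrocyte identity genes summed to 6952 and 7115 CPM at P6 and 7948 and 7725 CPM at P8. That sum was carried by *Apoe*, and without it the remaining 25 members went from 5705 and 5908 CPM to 2932 and 2886 CPM. Markers of other cell types moved as well. The 20 microglia and macrophage markers summed to 9342 and 9251 CPM at P6 and to 21450 and 21420 CPM at P8. The 19 fibroblast markers went from 3153 and 2975 CPM to 8524 and 8854 CPM. The sums for endothelial cells, neurons and oligodendrocytes went from 162.1 and 188.5, 407.5 and 410.9, and 233.7 and 245.9 CPM to 78.57 and 76.74, 270.2 and 281.1, and 182.3 and 180.3 CPM. Those for neural stem cells, mural cells and ependyma were lower at P8 too, at 5304 and 5353, 3555 and 3511, and 94.34 and 92.85 CPM, against 10930 and 10820, 5122 and 4515, and 205.5 and 202.1 CPM at P6. Such sums weigh abundant members most, as *Col1a1*, *Col1a2* and *Col3a1* among fibroblast markers and *Tagln* among mural ones. Of the endothelial sum, *Slco1a4* made up 94.54 and 111.9 CPM at P6 and 29.35 and 28.71 CPM at P8. Of the 9 endothelial genes tested 4 rose and 4 fell, with a median log2 difference of 0.57. In a bulk library, fewer cells of a type and less RNA per cell cannot be told apart. These sums stand beside every gene group described, and their part in the results was not tested.

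**Figure D1:**
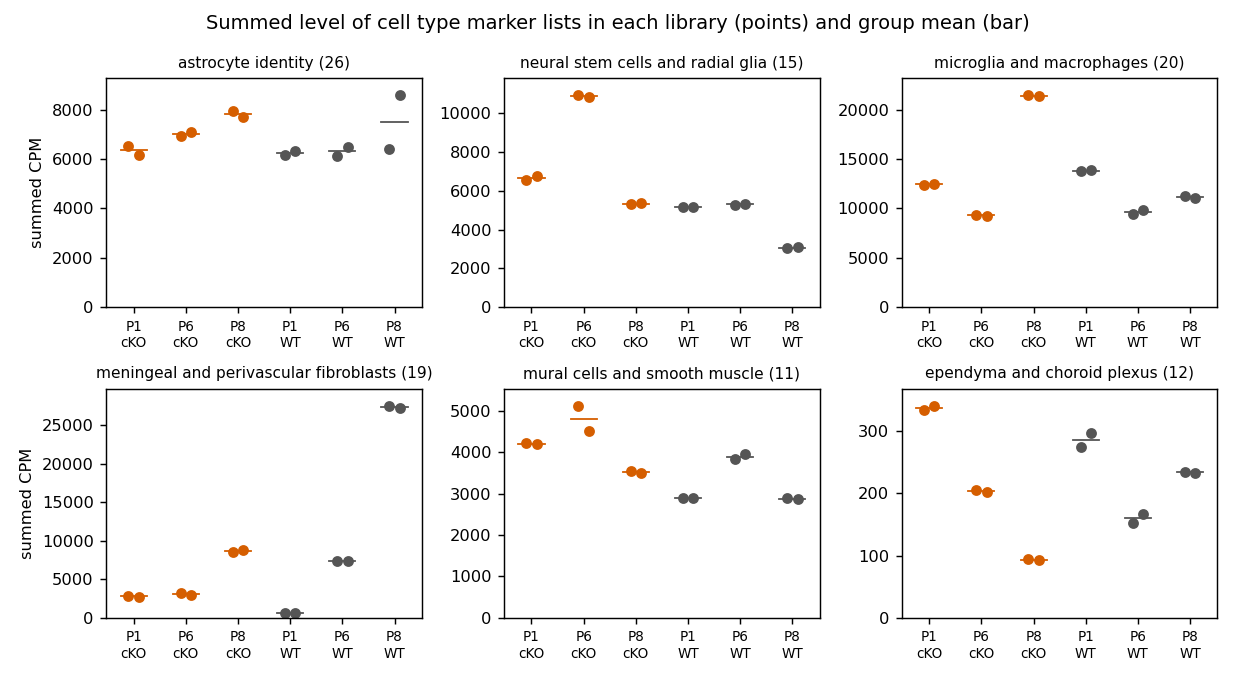
Summed CPM of marker genes in each library, with the 6 groups along the horizontal axis and a point for each of 2 libraries per group. In *Rack7*-cKO the microglia and macrophage sum reached 21450 and 21420 CPM at P8 against 9342 and 9251 CPM at P6, while in WT the fibroblast sum stood at 7320 and 7381 CPM at P6 and 27480 and 27280 CPM at P8.

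Between P6 and P8, 2044 autosomal genes were up-regulated and 2095 down-regulated in *Rack7*-cKO cultures, 11.9% and 12.2% of the 17223 tested. The median log2 difference over all of these genes was 0.00631. The median log2 difference was 1.3 among the up-regulated genes and -1.15 among the down-regulated ones. A change of at least 4-fold was seen for 608 up-regulated and 304 down-regulated genes, and of at least 10-fold for 292 and 60. Among the up-regulated genes, 110 had no count in either P6 library. In WT 8.62% of the 17223 genes rose and 10.3% fell. The difference of the steps was called more positive in *Rack7*-cKO for 8.51% and more negative for 5.89%. Every list count below is to be read beside these shares over all genes.

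**Figure D2:**
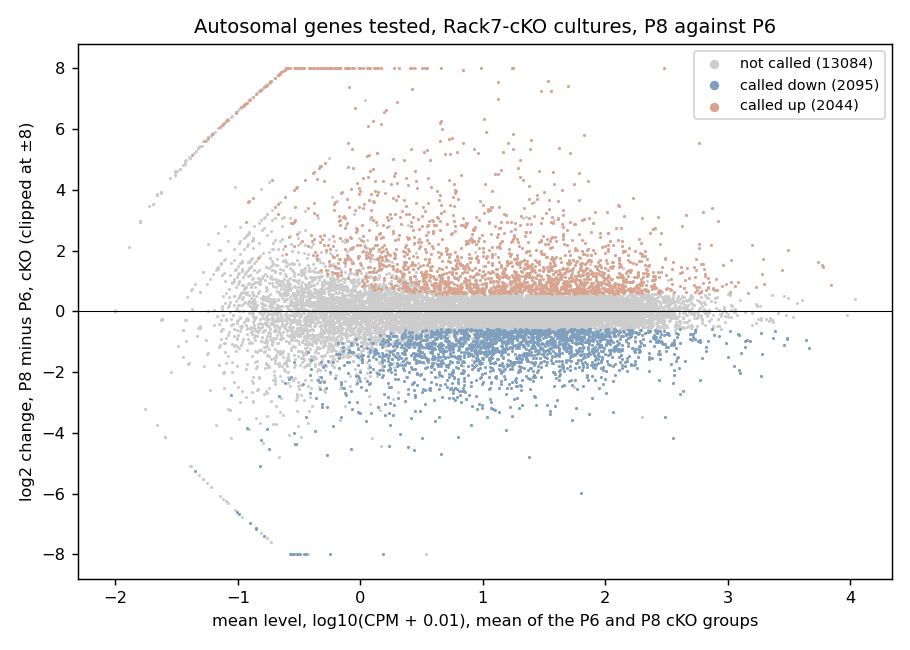
Log2 difference P8 minus P6 in *Rack7*-cKO cultures (vertical axis, drawn between -8 and 8) against mean level as log10(CPM + 0.01) (horizontal axis) for autosomal genes. The 2044 up-regulated and 2095 down-regulated genes are coloured, genes not called are grey, and points in straight lines at the left are genes with no count in 1 group, whose fitted difference is no bound.

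Genes of the interferon response had the highest share of up-regulated members of the lists examined. Interferons act through JAK kinases and a complex holding STAT2 and IRF9, which binds the interferon-stimulated response element in target promoters, and the targets encode sensors and effectors of antiviral defence. Of 35 interferon-stimulated genes tested, 31 were up-regulated (88.6%, against 11.9% of all genes) with a median log2 difference of 2.1. None was down-regulated in edgeR, at an unadjusted p under 0.05 or in DESeq2. The other 4, *Ifit3*, *Ifit3b*, *Irf9* and *Ifi27*, had differences of 1.42, 1.26, 0.83 and 0.25 that missed the threshold. The element can be searched for as the letters GAAA, any pair of bases, GAAA, on either strand. RefSeq promoter windows were held for 22 of the 31 up-regulated genes. A gene with more than 1 window counted once, if any of its windows matched. These letters stood in the 250 bases before the start for 11 of the 22 genes (50%), against 3.47% of 25748 genes with windows. The 4 windows with the most matches, ties taken by level at P8, are shown, from GRCm38.p6, read 5′ to 3′ along the gene, with the matches in capitals.
Isg15 (chr4:156200819-156201068, minus strand): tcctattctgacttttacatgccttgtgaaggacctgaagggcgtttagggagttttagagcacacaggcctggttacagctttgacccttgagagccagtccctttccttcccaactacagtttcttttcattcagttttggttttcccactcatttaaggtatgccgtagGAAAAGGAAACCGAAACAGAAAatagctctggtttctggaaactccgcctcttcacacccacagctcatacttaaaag
Bst2 (chr8:71537473-71537722, minus strand): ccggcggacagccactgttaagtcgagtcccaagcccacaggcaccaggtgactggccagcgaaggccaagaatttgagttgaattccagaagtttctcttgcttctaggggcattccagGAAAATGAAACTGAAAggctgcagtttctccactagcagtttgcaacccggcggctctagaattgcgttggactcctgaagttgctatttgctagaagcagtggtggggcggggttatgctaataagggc
Ifit1 (chr19:34640639-34640888, plus strand): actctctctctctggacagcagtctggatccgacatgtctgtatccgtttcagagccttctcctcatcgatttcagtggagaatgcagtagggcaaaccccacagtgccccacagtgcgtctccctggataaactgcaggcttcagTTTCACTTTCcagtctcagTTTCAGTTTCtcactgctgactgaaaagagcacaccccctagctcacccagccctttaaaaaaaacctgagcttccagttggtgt
Oas1a (chr5:120907526-120907775, minus strand): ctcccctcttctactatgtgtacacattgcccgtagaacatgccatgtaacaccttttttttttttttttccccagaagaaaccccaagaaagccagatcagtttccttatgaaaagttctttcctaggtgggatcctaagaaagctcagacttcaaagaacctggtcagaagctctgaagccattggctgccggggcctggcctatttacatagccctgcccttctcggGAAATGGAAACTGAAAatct

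In *Isg15*, whose product is a ubiquitin-like modifier, 3 matches overlap, and 68 bases lie between the end of the farthest match and the start. Overlapping pairs stand in *Bst2*, a tether that holds virus particles at the cell surface, and in *Oas1a*, which makes the messenger that activates RNase L. In *Ifit1*, which binds viral RNA, the matches are separate and read on the other strand. A match describes letters and does not show binding, and no run of letters searched contains another. Other motifs were searched on both strands for the same 22 genes. CCAAT stood in 8 (36.4% against 37.4% of all genes with windows) and TGANTCA in 5 (22.7% against 7.88%). TTTGAA stood in 3 (13.6% against 17.9%), TTTNNCGC in 1 (4.55% against 4.91%) and TCACNCCAC in 0 (0% against 1.25%).

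Both P8 libraries lay above both P6 libraries for each of these genes. *Isg15* was at 13.78 and 7.655 CPM at P6 and at 55.15 and 56.42 CPM at P8, a log2 difference of 2.38 (standard error 0.61, edgeR adjusted p 0.0128). *Bst2* went from 103.3 and 66.62 CPM to 342.5 and 329.3 CPM. *Ifit1* went from 29.15 and 18.37 CPM to 105.7 and 118 CPM. In all 3 the P6 library of replicate 1 was the higher of its pair. Larger rises were seen for the oligoadenylate synthetases *Oas2*, from 5.574 and 5.85 CPM to 96.85 and 112.3 CPM (log2 difference 4.19, standard error 0.38), and *Oas3*, from 3.609 and 2.38 CPM to 72.64 and 71.84 CPM. The signal transducer *Stat2* rose too, from 40.34 and 31.35 CPM to 164.8 and 196 CPM. The transcription factor *Irf7*, which amplifies the response, rose from 10.92 and 6.892 CPM to 73.61 and 73.46 CPM. The receptor genes *Ifnar1* and *Ifnar2*, which no list held and which were looked up after the values of the targets were seen, had log2 differences of 0.62 and 0.62 and were both up-regulated.

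In WT fewer members passed the test. Of the same 35 genes 10 were up-regulated in WT between P6 and P8, beside 8.62% of all genes, and the *Rack7*-cKO step was called more positive than the WT step for 14, beside 8.51% of all genes. *Rsad2*, an antiviral enzyme, illustrates the difference, at 11.47 and 11.51 CPM at P6 and 51.18 and 55.2 CPM at P8 in *Rack7*-cKO and a mean of 16.33 and 13.37 CPM in WT (difference of the steps 2.50). *Isg15* and *Ifit1* did not pass that test, with differences of 2.09 each. The P1 *Rack7*-cKO libraries, which share the male pattern of those at P8, had high levels as well, with *Rsad2* at 138.3 CPM and *Oas2* at 106.6 CPM in the P1 *Rack7*-cKO library of replicate 1. Between P1 and P8, in a comparison that shares the P8 libraries, 10 of the 35 genes were down-regulated in *Rack7*-cKO and none up-regulated in edgeR, at an unadjusted p under 0.05 or in DESeq2, beside 9.97% and 10.2% of all genes.

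Antigen presentation genes rose from P6 to P8 too. MHC class I molecules carry peptides to the cell surface on a light chain encoded by *B2m*, and immunoproteasome subunits cut those peptides. Of 21 genes tested 17 were up-regulated, with a median log2 difference of 1.42, and none was down-regulated in edgeR, at an unadjusted p under 0.05 or in DESeq2. *B2m* was at 605.5 and 530.4 CPM at P6 and 2576 and 2597 CPM at P8 (log2 difference 2.19, standard error 0.07, edgeR adjusted p 3.12e-08). The heavy chain *H2-D1* went from 197.1 and 180.6 CPM to 1486 and 1465 CPM and *H2-K1* from 109.4 and 104 CPM to 760 and 725.4 CPM. Both P8 libraries were several times above both P6 libraries for these 3 genes. *Nlrc5*, the activator of class I genes, rose by 2.32 and the immunoproteasome subunit *Psmb8* by 1.72 on the log2 scale, while the peptide transporter *Tap2* had a difference of 0.15 and was not called. MHC class II genes were low, with *Cd74* at no more than 3.683 CPM. In WT 11 of the 21 were up-regulated, beside 8.62% of all genes, and the step in *Rack7*-cKO exceeded that in WT for 5, *B2m*, *H2-D1*, *H2-K1*, *Nlrc5* and *Psmb8*, beside 8.51% of all genes. Against P1, 10 of the 21 were down-regulated at P8 in *Rack7*-cKO and 2 up-regulated, beside 9.97% and 10.2% of all genes. In the P1 *Rack7*-cKO libraries *B2m* was at 3040 and 3028 CPM and *H2-K1* at 1223 and 1223 CPM. H2 genes share long stretches of sequence, so their reads may be split between copies. CCAAT stood in promoter windows of 12 of 14 up-regulated genes (85.7%, against 37.4% of all genes with windows). The interferon element letters stood in those of 3 (21.4%).

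The complement list, a cascade that tags cells and synapses for uptake, had 13 of 17 genes up-regulated and 1 down-regulated. Against P1, 6 of the 17 were up-regulated at P8 in *Rack7*-cKO and 4 down-regulated, beside 10.2% and 9.97% of all genes. *C3* went from 56.44 and 76.45 CPM to 433.6 and 448 CPM, a log2 difference of 2.73 (standard error 0.12), after 1190 and 1187 CPM at P1. The receptors *C3ar1* and *C5ar1* rose by 1.57 and 1.37, and the *C1q* chains, made in brain mainly by microglia, by 0.98, 1.06 and 0.90 for *C1qa*, *C1qb* and *C1qc*. *Cd59a*, which blocks the membrane attack complex, fell by 1.30, a call that was lost without P6 *Rack7*-cKO replicate 1 or without either P8 *Rack7*-cKO library. In WT 9 of the 17 rose and 2 fell, beside 8.62% and 10.3% of all genes. The *Rack7*-cKO step was called more positive for 9 and more negative for 3, beside 8.51% and 5.89% of all genes. *C3* rose in WT as well, by 1.72, with a called difference of the steps of 1.01. For all 5 of the receptors and *C1q* chains the WT change was between -0.27 and -0.01 and not called, and the *Rack7*-cKO step was called more positive. The classical proteases ran the other way, since *C1ra* and *C1s1* were not called in *Rack7*-cKO (0.58 and -0.01) and rose by 2.33 and 2.20 in WT.

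Among 34 chemokines and cytokines, 20 were up-regulated and 5 down-regulated, the latter 3 without P8 *Rack7*-cKO replicate 2. Several that rose were chemokines of the CC class, which draw monocytes. *Ccl8* had no count and 0.1245 CPM in the P6 libraries and 35.17 and 34.8 CPM at P8. *Ccl6* went from 20.77 and 20.55 CPM to 230.6 and 232.4 CPM, and *Ccl9* from 56.24 and 55.37 CPM to 222.5 and 221.3 CPM. All of these sat low in both P6 libraries and high in both P8 libraries. The neutrophil attractant *Cxcl5* rose from 0.4264 and 0.28 CPM to 66.8 and 68.65 CPM. In WT 13 of the 34 rose and 9 fell, beside 8.62% and 10.3% of all genes. The *Rack7*-cKO step was called more positive for 14 and more negative for 3, beside 8.51% and 5.89% of all genes. *Ccl8* and *Ccl6* rose in WT too, by 6.49 and 1.62, and the difference of the steps was called for *Ccl6* but not for *Ccl8*. Several other members of the list went opposite ways in WT. *Ccl2*, *Ccl4*, *Ccl7* and *Tnf* rose in *Rack7*-cKO by 0.94, 0.97, 2.87 and 1.28 and fell in WT by 1.94, 1.36, 0.84 and 0.94 on the log2 scale, and for all 4 the difference of the steps was called. The factors that sustain microglia fell, *Csf1* from 1018 and 941 CPM to 565.4 and 584.4 CPM and *Il34* by 1.47, and so did the alarmin *Il33*, by 0.73. In WT *Csf1* fell too, by 0.65, and *Il33* rose by 1.42. *Cxcl12*, a stromal chemokine, was not called in *Rack7*-cKO, with 49.72 and 22.25 CPM at P6 and 47.74 and 47.27 CPM at P8, but rose by 3.58 in WT (difference of the steps -3.18). Against P1, 14 of the 34 were down-regulated at P8 in *Rack7*-cKO and 3 up-regulated, beside 9.97% and 10.2% of all genes. In the P1 *Rack7*-cKO libraries *Ccl9* was at 354.7 and 347 CPM, and *Ccl8* at 1.955 and 1.51 CPM.

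**Figure D3:**
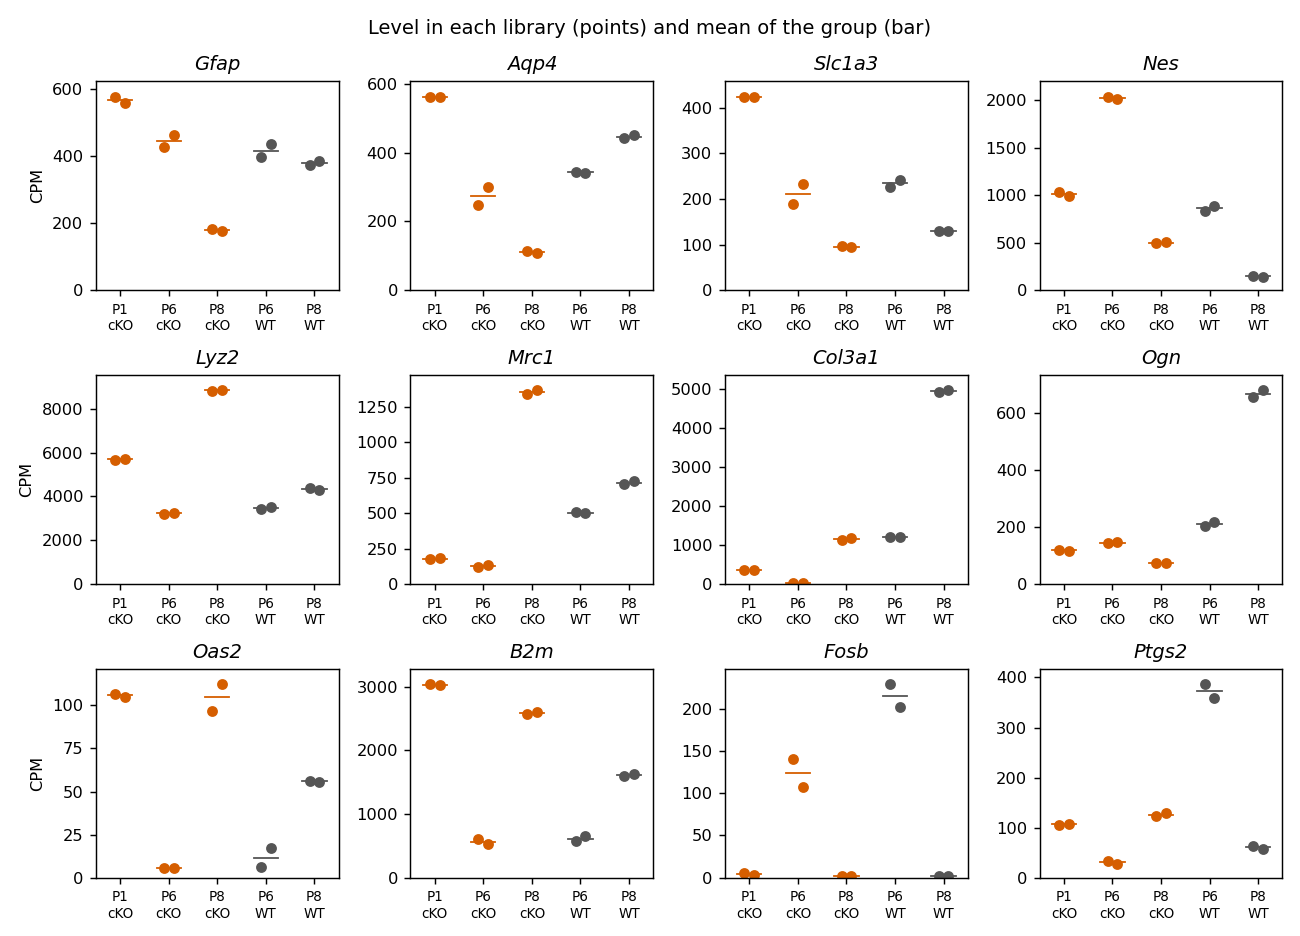
CPM of selected genes in each library, with a point per library and 2 libraries per group on a linear axis that starts at 0. In *Rack7*-cKO *Gfap* lay at 426.4 and 464.5 CPM at P6 and 183.7 and 176.1 CPM at P8, and *B2m* at 605.5 and 530.4 against 2576 and 2597 CPM.

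Microglia and macrophage genes rose as a group, 16 of 20 up-regulated (80%) with a median log2 difference of 0.977, and none was down-regulated in edgeR, at an unadjusted p under 0.05 or in DESeq2. Lysozyme, *Lyz2*, was at 3214 and 3232 CPM at P6 and 8836 and 8847 CPM at P8 (log2 difference 1.46, standard error 0.02, edgeR adjusted p 9.79e-10). The mannose receptor *Mrc1*, which marks macrophages at the brain's borders more than microglia of the tissue, went from 119.3 and 136.3 CPM to 1339 and 1368 CPM, a log2 difference of 3.40 (standard error 0.06). Each was higher in both P8 libraries. The lineage factor *Spi1* rose by 1.32, *Aif1* by 1.74, the protease *Ctss* by 1.54 and the receptor *Csf1r* by 0.96. Members not called included the microglial genes *Tmem119*, *P2ry12* and *Cx3cr1*, at 0.03, 0.53 and 0.53. The list in WT held 5 up-regulated genes and 1 down-regulated gene, beside 8.62% and 10.3% of all genes. The *Rack7*-cKO step was called more positive for 16 of 20 and more negative for 1, *Tmem119*, beside 8.51% and 5.89% of all genes. *Cd68*, a lysosomal membrane protein, rose in *Rack7*-cKO, from 401.4 and 397.9 CPM to 678.3 and 700.3 CPM, and fell in WT by 1.01.

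Astrocyte identity genes went down. Of 26 tested 18 were down-regulated (69.2%, against 12.2% of all genes) and only *Apoe* was up-regulated, with a median log2 difference of -1.14. *Gfap* was at 426.4 and 464.5 CPM at P6 and 183.7 and 176.1 CPM at P8, a log2 difference of -1.31 (standard error 0.06, edgeR adjusted p 2.18e-07). The water channel *Aqp4* went from 248.3 and 298.8 CPM to 113.5 and 108.9 CPM. The bicarbonate transporter *Slc4a4* went from 252.3 and 278.8 CPM to 77.72 and 77.58 CPM. For each of them both P8 libraries lay below both P6 libraries. The enzymes and channels *Aldh1l1*, *Kcnj10* and *Acsbg1* fell by 1.32, 1.87 and 2.28, the orphan receptor *Gpr37l1* by 1.92 and the adhesion molecule *Hepacam* by 1.87. *Glul*, the glutamine synthetase gene, was at 294 and 297.1 CPM and then 268.8 and 287.3 CPM and was not called, nor was the gap junction gene *Gja1* (-0.19) or the glutamate transporter *Slc1a2* (-0.39). The glutamate transporter *Slc1a3* fell, from 189.1 and 232.4 CPM to 95.81 and 94.66 CPM. *Apoe*, which astrocytes and macrophages both make, rose from 1247 and 1207 CPM to 5015 and 4840 CPM (log2 difference 2.01, standard error 0.24).

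In WT 11 of the 26 astrocyte identity genes were down-regulated and 3 up-regulated, beside 10.3% and 8.62% of all genes. The *Rack7*-cKO step was called more negative than the WT step for 9 genes, beside 5.89% of all genes. It was more positive for none in edgeR, at an unadjusted p under 0.05 or in DESeq2. *Gfap* had a WT change of -0.14, and the difference of the steps, -1.17, was called. For *Aqp4* and *Slc4a4*, which had WT changes of 0.38 and 0.23, the differences of the steps were called as well, that of *Aqp4* at -1.68. *Aldh1l1*, *Clu* and *Cpe* had differences of 0.15, 0.03 and -0.15 and were down-regulated in both genotypes. *Gja1* was at a mean of 224.7 CPM at P6 and 535.8 CPM at P8 in WT, where it was up-regulated, and its difference of -1.44 was not called. In the P1 *Rack7*-cKO libraries the identity list without *Apoe* summed to 5414 and 5412 CPM, above the P8 sums of 2932 and 2886 CPM, and between P1 and P8 16 members were down-regulated and 2 up-regulated, beside 9.97% and 10.2% of all genes.

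**Figure D4:**
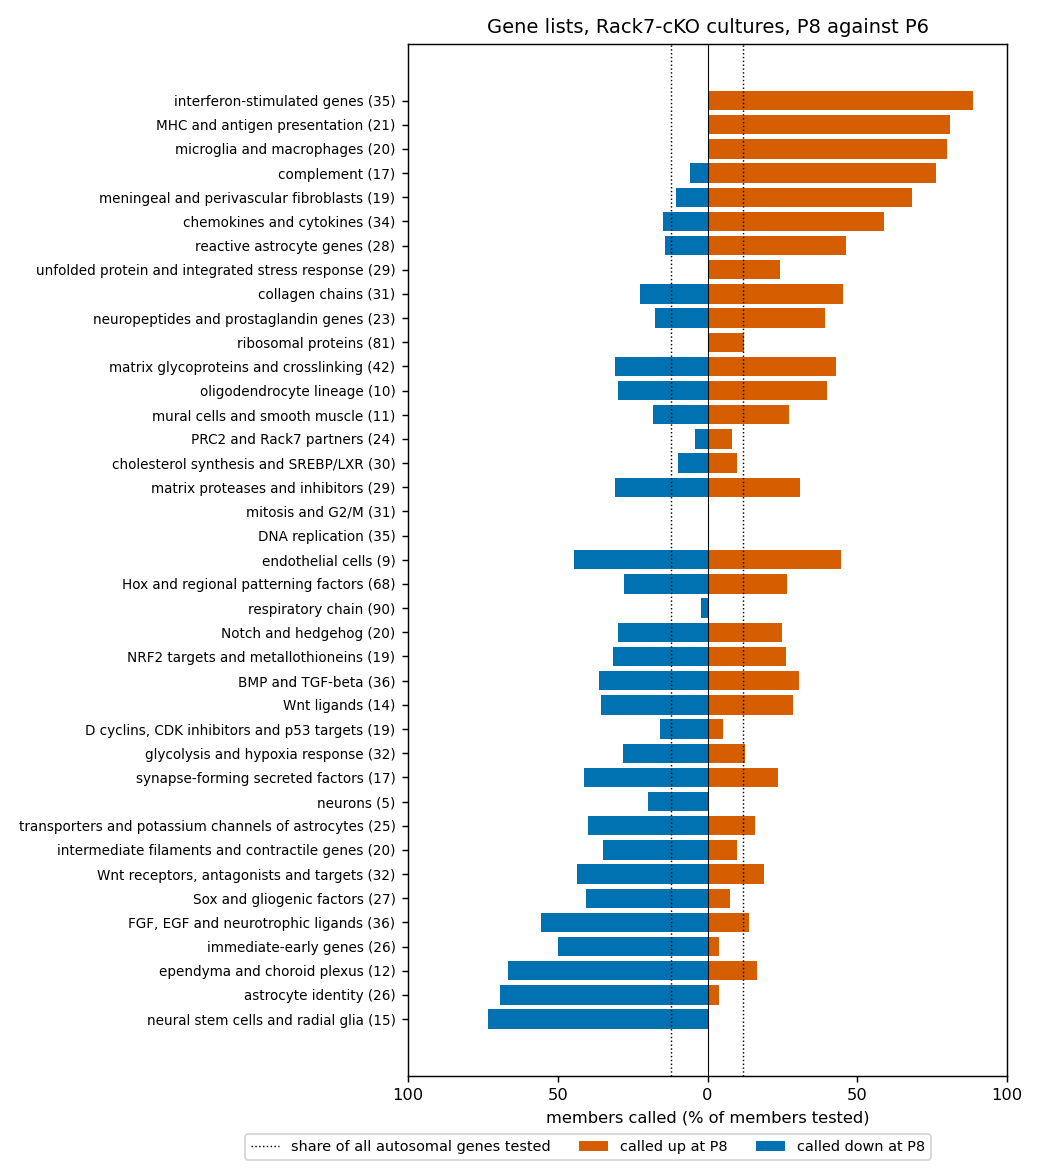
Share of the tested members of each gene list that were up-regulated (right) and down-regulated (left) at P8 against P6 in *Rack7*-cKO, with the number tested in parentheses and dotted lines at 11.9% and 12.2%, the shares of all autosomal genes. Interferon-stimulated genes had 88.6% up-regulated and neural stem cell genes 73.3% down-regulated.

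Transport genes that serve astrocyte function followed in part. Of 25 tested 10 fell and 4 rose (40% and 16%, against 12.2% and 11.9% of all genes). The glutamine exporter *Slc38a3* fell from 71.93 and 68.16 CPM to 7.721 and 8.405 CPM (log2 difference -3.12, standard error 0.15), and the leak potassium channels *Kcnk1*, *Kcnk2* and *Kcnk10* by 2.34, 1.71 and 1.61. The cystine transporter *Slc7a11* rose from 10.69 and 12.17 CPM to 74.67 and 83.74 CPM. Secreted factors with roles at synapses were split, 7 of 17 down-regulated and 4 up-regulated. *Thbs1*, *Sparc* and *Sparcl1* fell by 0.94, 1.19 and 1.62, and the engulfment receptor *Megf10* by 2.15, whereas its counterpart *Mertk* rose by 0.90.

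Neural stem cell and radial glia genes fell in 11 of 15 cases (73.3%). None rose in edgeR, while at an unadjusted p under 0.05 with 1.5-fold, and in DESeq2, 1 did. *Nes*, the intermediate filament of neural progenitors, was at 2042 and 2015 CPM at P6 and 494.4 and 503.6 CPM at P8 (log2 difference -2.02, standard error 0.04, edgeR adjusted p 3.27e-09). *Vim* went from 4037 and 3906 CPM to 2135 and 2143 CPM, and the matrix protein *Tnc* from 3965 and 3966 CPM to 2153 and 2180 CPM. The fatty acid carrier *Fabp7* fell by 1.22, the receptor phosphatase *Ptprz1* by 1.67 and *Prom1* by 3.12. WT cultures had 9 of these genes down-regulated and 1 up-regulated, beside 10.3% and 8.62% of all genes. The steps differed for 5, more positive in *Rack7*-cKO for *Pax6* and *Hopx* and more negative for *Egfr*, *Ptprz1* and *Prom1*. The shares over all genes were 8.51% more positive and 5.89% more negative. The epidermal growth factor receptor *Egfr* was at 84.4 and 90.3 CPM and then 109 and 109.7 CPM in *Rack7*-cKO, and rose from a mean of 314.1 to 916.7 CPM in WT.

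Transcription factors of the neural lineage were measured as a further list. Of 27 Sox and gliogenic factors 11 were down-regulated and 2 up-regulated (40.7% and 7.41%, against 12.2% and 11.9% of all genes). *Sox9*, needed to start gliogenesis, went from 113.6 and 109.9 CPM to 49.47 and 47.24 CPM. *Sox2* fell by 0.85, *Sox6* by 1.44, *Sox8* by 1.62 and *Sox1* by 1.71, while *Nfia* and *Nfib*, which cooperate with SOX9, were not called (-0.33 and -0.30). Of 68 factors that mark regions of the body axis, 18 rose and 19 fell. Those that fell included midbrain and ventral factors, such as *En1*, *En2*, *Foxa1* and *Foxa2*, with log2 differences of -1.80, -2.26, -2.19 and -2.76, and the forebrain factor *Lhx2*, at -1.78. Among those that rose were Hox genes of the hindbrain and spinal cord, *Hoxa3*, *Hoxb4*, *Hoxc4* and *Hoxc5*, by 5.16, 2.56, 4.46 and 3.97. The mesenchymal factors *Tbx15* and *Six2* and the regional patterning factor *Zic1* rose too. *Hoxb3* had no count in either P6 library and 5.361 and 4.957 CPM at P8, at least 223.5-fold higher taking 3 counts as the limit for the P6 group. Its count may include reads of the overlapping *Hoxb3os*. In WT *Hoxb3* was at no more than 1.329 CPM, and *Hoxc4* and *Hoxc5* had means of 0.06727 and 0.03363 CPM at P8, and the steps differed for all 3. Over the whole list 23 genes had a more positive step in *Rack7*-cKO than in WT and 3 a more negative one, beside 8.51% and 5.89% of all genes.

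Fibroblast genes rose, 13 of 19 up-regulated and 2 down-regulated, with a median log2 difference of 2.27. The collagen *Col3a1* was at 22.83 and 25.87 CPM at P6 and 1118 and 1170 CPM at P8 (log2 difference 5.55, standard error 0.07, edgeR adjusted p 8.21e-10). *Col1a1* went from 1609 and 1479 CPM to 3929 and 3990 CPM. The proteoglycan *Dcn* went from 1.934 and 3.283 CPM to 45.7 and 44.66 CPM. P8 lay above P6 in every pairing of libraries for these genes. *Lum* had no count at P6 and 3.628 and 3.911 CPM at P8, and the mesenchymal factors *Foxd1*, *Tbx18* and *Foxc2* rose by 4.65, 3.45 and 2.30. The 2 genes that fell were *Ogn*, by 0.96, and *Islr*, by 1.79. WT cultures held 14 up-regulated members, beside 8.62% of all genes. Levels in WT were far higher, with *Col3a1* at a mean of 1209 CPM at P6 and 4941 CPM at P8. The step was more positive in *Rack7*-cKO for 7 genes and more negative for 2, *Ogn* and *Islr*, beside 8.51% and 5.89% of all genes. *Prdm6*, a repressor of smooth muscle genes, and *Lrrc17*, a secreted protein, had no count in the P6 *Rack7*-cKO libraries and were at least 396.3-fold and 277-fold higher at P8.

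Collagens as a class did not follow in one direction. Of 31 chains 14 rose and 7 fell, beside 11.9% and 12.2% of all genes. The fibril chains *Col1a1*, *Col1a2* and *Col3a1* and *Col6a3* were among those that rose, whereas the cartilage collagen *Col2a1* fell from 584.8 and 545.5 CPM to 52.67 and 49.3 CPM (log2 difference -3.47, standard error 0.09) and *Col5a2* from 1912 and 1830 CPM to 964.2 and 982.9 CPM. Basement membrane chains went both ways. *Col4a1* and *Col4a2*, which assemble together, rose by 0.64 and 0.94, and the call of *Col4a1* was lost without the P6 *Rack7*-cKO library of replicate 2. *Col4a3* and *Col4a4*, partners in a different trimer and encoded head to head on chromosome 1, fell from 45.98 and 45.66 CPM to 1.773 and 1.51 CPM and from 28.02 and 29.34 CPM to 1.337 and 2.52 CPM. *Col4a3* and *Col4a4* fell in WT too, by 4.04 and 2.30. In WT 14 of the 31 chains rose and 3 fell, beside 8.62% and 10.3% of all genes. The *Rack7*-cKO step was called more negative for 10, with *Col5a2* (-1.06) and *Col4a3* (-0.77) among them, beside 5.89% of all genes. It was called more positive for 6, beside 8.51% of all genes. *Col4a1* and *Col4a2* were among these, with WT changes of -0.41 and -0.34.

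Other matrix genes were divided, with 18 of 42 glycoprotein and crosslinking genes up-regulated and 13 down-regulated, and 9 of 29 proteases and inhibitors each way. Osteopontin, *Spp1*, rose from 2594 and 2683 CPM to 8368 and 8040 CPM. The fibulin *Fbln2* rose from 96.36 and 83.31 CPM to 814.5 and 821.1 CPM, and the fibrillins *Fbn1* and *Fbn2* by 1.73 and 4.21. *Sparc*, a collagen-binding glycoprotein, fell from 6627 and 6075 CPM to 2819 and 2732 CPM. The growth factor carrier *Igfbp5* fell from 2944 and 3145 CPM to 709.7 and 698.5 CPM and the brain proteoglycan *Bcan* from 19.02 and 20.44 CPM to 1.528 and 1.973 CPM. Fibronectin, *Fn1*, was not called at 9729 and 9807 CPM and then 8868 and 9079 CPM. *Sparc* and *Thbs1* had steps more negative than in WT by 1.33 and 1.35 on the log2 scale. The plasminogen activators diverged, *Plau* up by 0.66 and *Plat* down by 1.25, and *Plau* fell in WT by 2.79.

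Wnt ligands were also divided. Of 14 tested 5 fell and 4 rose, and the count of risers dropped to 2 without the P6 *Rack7*-cKO library of replicate 1. *Wnt9a* went from 33.23 and 30.43 CPM to 10.04 and 7.917 CPM and *Wnt7b* from 9.884 and 8.744 CPM to 3.301 and 2.592 CPM. *Wnt4*, *Wnt7a* and *Wnt3* had log2 differences of -1.23, -2.86 and -3.41. *Wnt7a* and *Wnt7b* act on brain vessels, and both ligands were lower in each P8 library. *Wnt2b* rose from 3.518 and 4.434 CPM to 10.94 and 11.14 CPM and *Wnt2* from 0.2894 and 0.4667 CPM to 3.628 and 3.305 CPM. Both fell in WT, by 1.29 and 1.26, and their steps differed by 2.76 and 4.46. *Wnt5a*, a ligand of the non-canonical branch, was not called, at 76.31 and 69.44 CPM and then 68.18 and 75.7 CPM. Of 32 receptors, antagonists and targets 14 fell and 6 rose (43.8% and 18.8%, against 12.2% and 11.9% of all genes). The feedback target *Axin2* fell by 1.05, the factor *Tcf7* by 2.16 and the receptors *Fzd1*, *Fzd3*, *Fzd5*, *Fzd6*, *Fzd8* and *Fzd10* by 0.66 to 2.52, while the agonists *Rspo2* and *Rspo3* and the receptor *Ror2* rose by 3.05, 3.51 and 2.79. The antagonist *Sfrp4* fell by 2.55 and rose in WT by 3.26.

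Genes of growth factor signalling were more often down than up, with 20 of 36 FGF, EGF and neurotrophic genes down-regulated and 5 up-regulated. *Hbegf*, an EGF receptor ligand, went from 738.2 and 663 CPM to 105.6 and 109 CPM (log2 difference -2.71, standard error 0.08). The cytokine *Lif*, which drives astrocyte differentiation, went from 246.2 and 174.2 CPM to 21.05 and 21.16 CPM and *Fgf1* from 103 and 104.1 CPM to 11.95 and 10.75 CPM. All were far lower in both P8 libraries. Targets of the ERK pathway, *Dusp6*, *Etv4*, *Etv5*, *Spry2* and *Spry4*, had log2 differences of -0.68, -1.03, -0.64, -1.43 and -2.43. WT had 19 of the 36 genes down-regulated and 2 up-regulated, beside 10.3% and 8.62% of all genes. The steps differed for 9 of 36. They were more positive in *Rack7*-cKO for 6 and more negative for 3, beside 8.51% and 5.89% of all genes. *Fgf2* was at 99.75 and 9.677 CPM at P6 and 4.31 and 83.75 CPM at P8, and its libraries differed too much within each group to give a direction. *Ccnd1*, the cyclin that such signals induce, fell from 4018 and 3853 CPM to 1848 and 1823 CPM. No gene of DNA replication (35 tested) or mitosis (31 tested) was called in *Rack7*-cKO by edgeR or DESeq2, with medians of -0.0202 and -0.16. At an unadjusted p under 0.05 and any fold, 5 replication genes were higher and 6 lower, and 11 mitosis genes were lower, all under 1.5-fold. In WT 14 replication and 9 mitosis genes fell, beside 10.3% of all genes. The steps differed for 10 and 5, all more positive in *Rack7*-cKO, beside 8.51% of all genes.

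Of 36 BMP and TGF-beta genes tested 11 rose and 13 fell, beside 11.9% and 12.2% of all genes. The BMP targets *Id1*, *Id2* and *Id4* fell by 1.82, 1.42 and 1.64, along with *Smad6*, *Smad9*, *Bmp6*, *Bmp7* and the antagonist *Nog*, which fell by 2.15. *Tgfb1*, its receptor *Tgfbr2* and the activin chain *Inhba* rose. *Tgfb1* was at 80.58 and 77.39 CPM at P6 and 180.2 and 187.5 CPM at P8, a log2 difference of 1.22, and its step was more positive than in WT by 1.53. *Id2* had 43.08 and 101.6 CPM in the P8 libraries. The Notch and hedgehog list had 5 of 20 genes up-regulated and 6 down-regulated, beside the same shares of all genes, 11.9% and 12.2%. *Shh* fell from 166 and 165.2 CPM to 76.62 and 73.92 CPM, and its target *Gli1* rose from 0.4569 and 0.1867 CPM to 5.593 and 5.338 CPM.

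Immediate-early genes, transcribed within minutes of a stimulus, fell in 13 of 26 cases and rose in 1. *Fosb* was at 140.6 and 107.5 CPM at P6 and 1.91 and 1.985 CPM at P8 (log2 difference -5.99, standard error 0.27, edgeR adjusted p 2.4e-07). *Nr4a1* went from 120 and 77.85 CPM to 8.675 and 8.12 CPM and *Egr1* from 478.3 and 385.8 CPM to 187.3 and 199.7 CPM. All 3 were higher in both P6 libraries. In the P1 *Rack7*-cKO libraries *Fosb* was at 5.135 and 3.353 CPM, *Nr4a1* at 4.794 and 5.213 CPM and *Egr1* at 92.78 and 90.35 CPM. Between P1 and P8, 10 of the 26 genes were up-regulated in *Rack7*-cKO and 2 down-regulated, beside 10.2% and 9.97% of all genes. *Fos*, *Junb* and *Atf3* were not called, at -0.38, -0.30 and -0.26. In WT 24 of 26 fell, beside 10.3% of all genes. The step was more positive in *Rack7*-cKO for 15, beside 8.51% of all genes. For 1 gene it was more negative at an unadjusted p under 0.05 and under 1.5-fold, and for none in edgeR or DESeq2 by the rule for calls. The gene that rose was *Ptgs2*, the inducible enzyme of prostaglandin synthesis, which went from 34.37 and 28.18 CPM to 123.8 and 128.3 CPM in *Rack7*-cKO and from a mean of 372.4 to 60.58 CPM in WT (difference of the steps 4.63). Prostaglandin genes downstream rose as well, *Ptges* from 1.63 and 2.287 CPM to 19.06 and 23.4 CPM and *Ptgis* from 0 and 0.28 CPM to 26.59 and 25.9 CPM, and both steps exceeded those in WT. The constitutive enzyme *Ptgs1* fell by 0.70 and rose in WT by 1.39.

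Reactive astrocyte genes showed 13 of 28 up-regulated and 4 down-regulated, beside 11.9% and 12.2% of all genes. *Lcn2*, a secreted iron-binding protein, went from 2.467 and 1.991 CPM to 58.87 and 50.79 CPM (log2 difference 4.62, standard error 0.24) and *Steap4* from 0.533 and 1.929 CPM to 40.24 and 38.01 CPM. *Serpina3n* rose by 1.87 and *Ptx3* by 2.74. In WT *Lcn2*, *Steap4*, *Serpina3n* and *Ptx3* rose too, by 5.30, 5.35, 2.11 and 1.96. *Emp1* fell from 684.5 and 676.3 CPM to 35.59 and 40.36 CPM, whereas the reactive marker *Cd44* was at 427.1 and 451.8 CPM and then 420 and 424.7 CPM and was not called. Between P1 and P8 in *Rack7*-cKO 2 genes of the list rose and 12 fell, beside 10.2% and 9.97% of all genes.

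The *Rack7*-cKO and WT steps, which share no library, could be set against each other gene by gene. Of the 2044 up-regulated genes 776 (38%) were also up-regulated in WT, where they made up 52.3% of the 1484 such calls (8.62% of all genes), and 100 were down-regulated. Of the 2095 down-regulated genes 1057 (50.5%) were also down-regulated in WT, 59.7% of the 1771 there (10.3% of all genes), and 62 were up-regulated. The difference between the steps was called more positive in *Rack7*-cKO for 1465 genes (8.51%) and more negative for 1015 (5.89%). It was called for 1642 (39.7%) of the 4139 genes called in *Rack7*-cKO, of which 909 rose with a more positive step and 577 fell with a more negative one. Both steps run from a female to a male pattern.

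**Figure D5:**
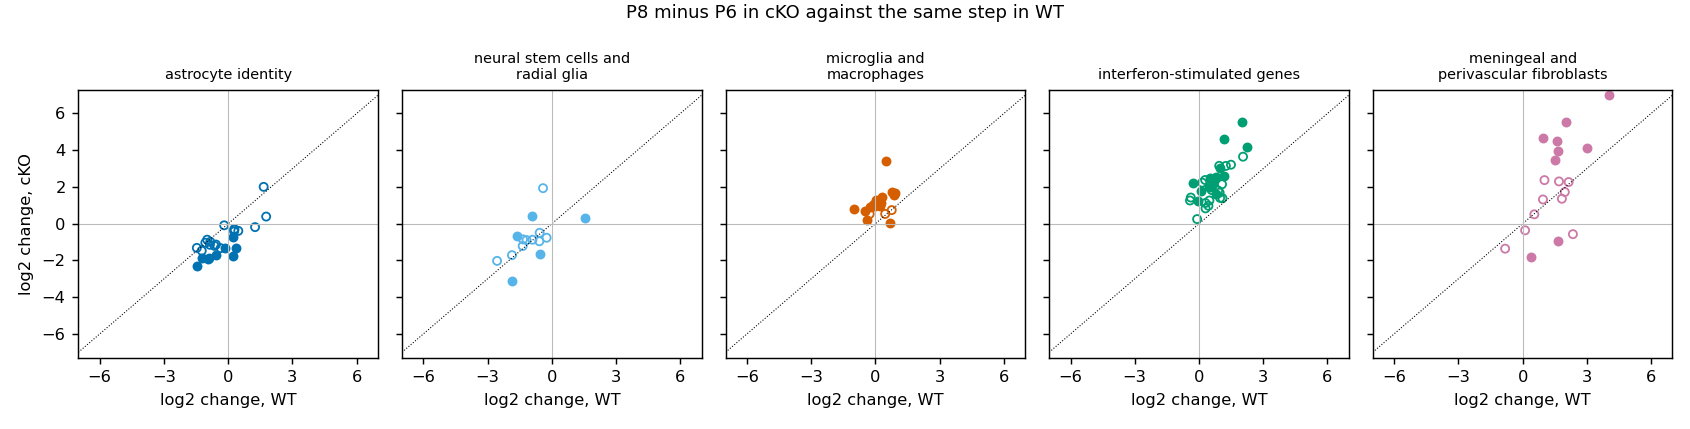
Log2 difference P8 minus P6 in *Rack7*-cKO (vertical axis) against that in WT (horizontal axis) for the members of 5 gene lists, with filled points where the difference between the steps was called and a dotted line where both are equal. Microglia genes lie above the line for 16 called members of 20, and *Lum*, with no count in the P6 *Rack7*-cKO libraries, is drawn at the edge of its panel.

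Several single genes with wide gaps between the steps, or large rises, had no count in 1 group. *Penk*, the enkephalin precursor, was at 0.4873 and 0.28 CPM at P6 and 0.3956 and 0.4874 CPM at P8 in *Rack7*-cKO, while in WT it went from 2.335 and 2.716 CPM to 289.1 and 317.6 CPM. *Prl2c2*, a prolactin family hormone, had no count in the P6 *Rack7*-cKO libraries and 0.8866 and 0.6538 CPM at P8, at least 33.36-fold higher, and ran in WT from 6.99 and 6.045 CPM to 0.03363 and 0.05541 CPM. The deiodinase *Dio3*, which inactivates thyroid hormone, went from 0 and 0.06223 CPM to 19.86 and 18.72 CPM and was not called in WT (-0.80). *Alb*, the albumin gene, had no count at P6 and 30.8 and 37.69 CPM at P8, at least 1483-fold higher, and rose in WT as well. A second identifier named *Itgam* rose from 0 and 0.01556 CPM to 707.1 and 491.6 CPM. Its span overlaps the *Itgam* gene and the reads of the pair were split unevenly between libraries, so only their sum is read, which went from 234 and 304.6 CPM to 830.1 and 816.5 CPM. *Dnm3os* overlaps *Dnm3* and 2 microRNA genes and had 7.502 and 2.71 CPM at P8, with WT P6 libraries at 36.45 and 2.92 CPM.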

How the data were processed

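RNA of 12 astrocyte cultures was sequenced as captured mRNA by a company. The authors aligned the reads to GRCm38/mm10 with HISAT2 and deposited raw counts per gene, which are the values used. The sources used here do not state the program, annotation or strand setting with which reads were counted per gene. Overlapping and antisense genes therefore cannot be told apart. The table held 18903 genes, of which 17938 passed edgeR's filterByExpr and 17223 of these were autosomal. Groups followed the labels. Counts were scaled by TMM and fitted in edgeR 4.0.16 (R 4.3.3), 1 mean per group over 12 libraries, with the quasi-likelihood test and Benjamini-Hochberg adjustment over all genes tested. Calls needed an adjusted p under 0.05 and 1.5-fold. The interaction contrast tested the difference of the steps. DESeq2 1.42.0, other filters and scalings, a replicate block and leaving out each library were alternatives. The scripts were tested on simulated data. The members and lists were chosen with earlier results of these data known. Genes were named by size of change, by level among the called members of each list and by the difference of the steps. Further members were named for their roles after their values were seen. Values of some list members are not reported here. Gene spans came from GENCODE M21 and promoters from RefSeq.

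The pair of libraries of each group correlated at Spearman's rho of 0.9906 to 0.9932, and their counts differed by 30.47 to 47.34 times the counting noise (chi-square per degree of freedom), so all were kept as separate samples. Libraries with the same replicate number did not deviate together, with correlations between groups from -0.0398 to 0.0811.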

Additional observations from a re-analysis of the deposited data

Results flagged for a closer look

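The step from P6 to P8 differed between *Rack7*-cKO and WT cultures by a test of the difference itself for 1465 autosomal genes that were more positive in *Rack7*-cKO and 1015 that were more negative. The 5 widest more positive terms were 15.81 for *Prl2c2*, 15.76 for the second *Itgam* identifier, 14.49 for *Dnm3os*, 10.89 for *Prdm6* and 10.28 for *Hoxb3* on the log2 scale. All 5 had no count or next to none in the P6 *Rack7*-cKO libraries, so these fitted terms depend on the prior count and are no bound. The term of the second *Itgam* identifier also rests on the uneven split of reads between the *Itgam* identifiers and is not read as a difference of the gene, whose sum went from 234 and 304.6 CPM to 830.1 and 816.5 CPM in *Rack7*-cKO and from 219.1 and 210.6 CPM to 331.9 and 447.5 CPM in WT.

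The 5 widest more negative terms were -11.36 for *Prnd*, -9.87 for *Trdc*, -8.53 for *Apoa1*, -6.7 for *Penk* and -6.34 for an identifier named *Rnf26*. *Prnd*, *Trdc* and *Apoa1* had no count in either P6 WT library, so their terms too depend on the prior count and are no bound. *Prnd*, a relative of the prion protein gene, was at 9.473 and 6.706 CPM at P6 and 6.261 and 8.441 CPM at P8 in *Rack7*-cKO, and in WT it had no count at P6 and 4.103 and 4.779 CPM at P8. *Apoa1*, a lipoprotein gene, went from 0.4416 and 0.2956 CPM to 3.26 and 2.746 CPM in *Rack7*-cKO and from no count to 6.357 and 4.737 CPM in WT. *Trdc* fell from 5.452 and 5.103 CPM to 0.3001 and 0.1427 CPM in *Rack7*-cKO, and in WT it had no count at P6 and 0.1514 and 0 CPM at P8. The identifier named *Rnf26* went from 10.87 and 1.136 CPM to 0.4501 and 0.2259 CPM in *Rack7*-cKO. Its span overlaps the *Rnf26* gene itself and others, so it is not read as the level of that gene. The terms of *Trdc* and of this identifier did not hold in every fit that left out a library.

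The summed level of 4 Y-linked genes, outside the autosomal comparison, averaged 291.8 CPM in the P8 *Rack7*-cKO libraries and was near 0 at P6.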

How the results depend on the processing

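The counts of 2044 and 2095 genes in *Rack7*-cKO, and of 1465 and 1015 genes for the difference of the steps, kept within 1.5 times under 6 alternatives each (1989 to 2256, 2050 to 2322, 1372 to 1843 and 984 to 1443), which included DESeq2 and fits without the filter. Leaving out 1 library gave 1781 to 2061, 1833 to 2084, 1231 to 1473 and 846 to 1011. A fold change of at least 2 in place of 1.5 reduced them to 1317, 1282, 840 and 560, by its construction. With the replicate block they were 2002, 2050, 1417 and 984, and since the replicate numbers did not pair the samples this block has no meaning in the design. Single genes were followed through the alternatives only where named by size of change, by level in a list or by the difference of the steps. The further members named for their roles were not followed in this way. Of the 165 genes followed, 158 were called in *Rack7*-cKO. None of these changed sign, and neither did the widest differences of the steps. Among those not called, the sign did not hold in every fit. Of the 158 called, 141 kept their call in 17 alternatives. *Nupr1* lost it in 8, *Kdm6b* in 7, *Ezh1* in 4, and *Atp5s*, *Cdkn1c*, *Kdr*, *Pkhd1* and *Rnf26* in 3 each, and *Trdc* had an adjusted p of 0.0773 in edgeR without P8 *Rack7*-cKO replicate 2. The difference of the steps of *Trdc* had adjusted p values of 0.05278 to 1 in edgeR in the fits that lost it, and was -4.575 without P8 WT replicate 1. That of *Rnf26* had 0.06454 to 0.1187, and was -3.931 without P6 *Rack7*-cKO replicate 1. The cause was not tested. With 2 libraries a group, and sex following the day, neither number of libraries nor depth allows day and sex to be separated.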

Other observations

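Further gene lists were measured between P6 and P8 in *Rack7*-cKO cultures, where 11.9% of all genes rose and 12.2% fell. Of 29 genes of the unfolded protein and integrated stress responses 7 rose, and none fell in edgeR or DESeq2, with 9 lower at an unadjusted p under 0.05 and under 1.5-fold. Those that rose were the ATF4 targets *Slc7a11*, *Trib3*, *Asns*, *Chac1* and *Psat1*, the transcription factor *Cebpb* and the stress gene *Nupr1*, and *Asns*, asparagine synthetase, was at 44.73 and 40.56 CPM at P6 and 80.83 and 86.34 CPM at P8. Of 32 glycolysis and hypoxia genes 9 fell and 4 rose. The isoforms typical of brain, *Aldoc* and *Eno2*, had log2 differences of -1.13 and -1.38, and *Hif1a* rose by 0.88. Of 30 genes of cholesterol synthesis and its control 3 rose and 3 fell, no more than the shares of all genes, with *Sqle* and *Insig1* among the latter.

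Of 19 NRF2 targets and metallothioneins 5 rose and 6 fell. The ferritin chain *Fth1* went from 3127 and 2891 CPM to 8507 and 8775 CPM and *Hmox1*, which breaks down heme, from 693.2 and 597.4 CPM to 1153 and 1172 CPM, while *Hmox1* fell in WT by 0.80. The metallothionein *Mt3*, a brain form that binds zinc, went from 133.4 and 118 CPM to 38.99 and 36.7 CPM. The lysosomal protease *Ctsb* rose from 4845 and 4977 CPM to 8995 and 9001 CPM and fell in WT by 0.63.

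Of 81 ribosomal protein genes 10 rose, a share close to the 11.9% of all genes, with a median log2 difference of 0.43. That count was 20 without P6 *Rack7*-cKO replicate 1 and 5 without replicate 2, and ribosomal genes have many near-identical copies that can share reads. Of 90 respiratory chain genes 2 fell, and 1, 6 and 4 did so without P6 *Rack7*-cKO replicate 1, P6 *Rack7*-cKO replicate 2 and P8 *Rack7*-cKO replicate 2. Of 24 genes of PRC2 and RACK7 partner complexes, *Rcor2* and *Ezh1* rose and *Kdm6b* fell, and the last call was lost in several of the fits that left out a library.

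Markers of other lineages went both ways within their lists. Of 10 oligodendrocyte genes 4 rose and 3 fell, with *Mbp*, a myelin protein, at 17.32 and 19.79 CPM at P6 and 52.12 and 52.38 CPM at P8, and the lineage factors *Olig1* and *Olig2* at log2 differences of -1.51 and -1.68. Of 9 endothelial genes 4 rose and 4 fell. *Cdh5*, the endothelial cadherin, went from 1.112 and 0.6068 CPM to 10.09 and 9.594 CPM, and the transporter *Slco1a4* from 94.54 and 111.9 CPM to 29.35 and 28.71 CPM. Of 11 mural and smooth muscle genes 3 rose and 2 fell, the contractile gene *Actg2* from 4.325 and 3.376 CPM to 60.62 and 56.77 CPM and *Tagln* from 1658 and 1466 CPM to 915.5 and 899.2 CPM. Of 12 ependymal and choroid plexus genes 8 fell and 2 rose. The cilium regulator *Foxj1* went from 128.2 and 121 CPM to 42.37 and 39.19 CPM. The count of rises was 1 with DESeq2 size factors, with no filter, with the 4 libraries alone and without any 1 of the libraries other than the P6 WT pair and P6 *Rack7*-cKO replicate 2. The count of falls was 5 without P6 *Rack7*-cKO replicate 2 or P8 *Rack7*-cKO replicate 1. None of 4 blood cell genes was called by edgeR or DESeq2 or at an unadjusted p under 0.05, and their sum was at most 0.05456 CPM in these 4 libraries. Of 5 neuronal genes only *Syt1* was called, at -1.70 on the log2 scale, and with the 4 libraries alone 2 were.

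Of 20 intermediate filament and contractile genes 7 fell and 2 rose, *Synm* and *Myh10* among the former. Of 19 cyclin, CDK inhibitor and p53 target genes *Sesn1* rose and *Ccnd1*, *Ccnd2* and *Cdkn1c* fell. Of 23 neuropeptide and prostaglandin genes 9 rose and 4 fell. *Hpgd*, which inactivates prostaglandins, went from 46.62 and 44.28 CPM to 236.7 and 216.6 CPM, and the receptors *Ptger2*, *Ptger4* and *Ptgir* rose by 2.83, 1.31 and 3.56.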
